A study of Mus musculus with 12 samples.

Results

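The chromatin around 10 genes of the Krüppel-like factor (KLF) family, Klf6, Klf7, Klf4, Klf9, Klf2, Klf5, Klf10, Klf12, Klf13 and Klf15, was examined in mouse dorsal root ganglia (DRG), out of 21887 protein-coding genes. Accessibility had been measured by ATAC-seq, in which a transposase cuts and tags open DNA, and was given as lists of peak summits, the points of highest signal. All summits inside a gene or within 50 kb of either of its ends were assigned to it. This gave 45 summits in the Silc1-/- injured list, 54 in the Silc1-/- sham list, 72 in the wild-type injured list and 48 in the wild-type sham list. Joining summits closer than 200 bp to their neighbour left 95 sites near the 10 genes, of 78381 sites in all. No summit was counted for more than 1 of the 10 genes.

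The groups were Silc1-/- mice with a crushed sciatic nerve, Silc1-/- mice with a sham operation, wild-type mice with a crushed nerve and wild-type mice with a sham operation. Each group had 3 libraries, each made from L4 to L6 ganglia, and 1 summit list. Silc1 is a long noncoding RNA, and the labels name no cell type to which its loss was restricted. The labels name purchased C57black6 Ola HSD males and strains bred in house; age and the time between crush and collection were not given in the sources used here. With 1 list per group there is no spread between libraries, so no difference between groups could be tested. The depth behind a list is unknown, and a site missing from a list is therefore not shown to be closed.

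KLF proteins are transcription factors with C2H2 zinc fingers that bind GC-rich and CACCC sequences, and members with similar fingers can compete for the same sites. In rodent neurons of the central nervous system, Klf6 and Klf7 promote axon growth, while Klf4 and Klf9 limit it. Sensory neurons of the DRG regrow their axons after a peripheral nerve crush.

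The bases just before the gene starts are given for 1 growth-promoting gene, both growth-limiting genes and Klf2, since the highest start summits of these genes fell in them or shortly upstream. They are the 250 bases before the annotated start in the RefSeq promoter table (build GRCm38.p6, the same as mm10), read along the gene. Capitals mark the matches to any of 7 motifs searched on both strands: the GC box (GGGCGG), the CACCC box, the CCAAT box, AP-1 (TGANTCA), the cyclic AMP element (TGACGTCA), the TATA box (TATAAA) and the CArG box. Neighbouring or overlapping matches run together as 1 stretch of capitals.
Klf6, chr13:5861239-5861488, plus strand: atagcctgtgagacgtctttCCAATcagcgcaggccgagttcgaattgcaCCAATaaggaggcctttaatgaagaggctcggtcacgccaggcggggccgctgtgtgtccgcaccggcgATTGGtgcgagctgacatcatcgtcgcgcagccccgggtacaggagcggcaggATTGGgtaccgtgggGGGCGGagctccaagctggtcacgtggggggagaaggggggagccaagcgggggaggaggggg
Klf4, chr4:55532476-55532725, minus strand: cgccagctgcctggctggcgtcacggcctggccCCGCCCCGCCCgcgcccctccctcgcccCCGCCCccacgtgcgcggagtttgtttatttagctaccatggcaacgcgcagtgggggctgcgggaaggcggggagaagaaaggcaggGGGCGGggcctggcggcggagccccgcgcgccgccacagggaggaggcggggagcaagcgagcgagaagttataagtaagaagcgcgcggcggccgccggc
Klf9, chr19:23140976-23141225, plus strand: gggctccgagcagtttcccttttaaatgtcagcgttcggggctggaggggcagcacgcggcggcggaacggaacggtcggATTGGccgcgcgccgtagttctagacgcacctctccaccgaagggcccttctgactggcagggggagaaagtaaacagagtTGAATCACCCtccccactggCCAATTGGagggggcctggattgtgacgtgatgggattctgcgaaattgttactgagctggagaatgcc
Klf2, chr8:72318812-72319061, plus strand: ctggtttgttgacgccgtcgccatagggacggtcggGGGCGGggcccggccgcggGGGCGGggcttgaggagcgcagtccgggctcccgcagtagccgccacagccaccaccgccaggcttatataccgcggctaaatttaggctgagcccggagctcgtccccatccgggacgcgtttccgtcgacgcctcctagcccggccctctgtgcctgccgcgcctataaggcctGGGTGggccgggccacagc

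The Klf6 stretch held 4 CCAAT boxes, beginning 230, 200, 131 and 78 bases before the start, and 1 GC box at 63 bases. The highest Klf6 summits of all 4 lists, 143 to 163 bases before the start, lay between the CCAAT boxes at 200 and 131 bases. The Klf4 stretch held 4 GC boxes, at 217, 212, 189 and 101 bases, the first 2 of them overlapping, and no CCAAT box. The Klf9 stretch held no GC box, and its CACCC box at 84 bases overlapped an AP-1 match at 89 bases. It also held 3 CCAAT boxes, at 170, 69 and 66 bases. The Klf2 stretch held GC boxes at 214 and 195 bases and a CACCC box at 19 bases. Promoters of 8 of the 10 genes were matched in the table. The 250 bases of Klf7, which lie inside the longer span of its gene, held 1 GC box and 3 CACCC boxes. None of the 8 held the cyclic AMP element or the CArG box. Among 21263 promoters of the same length, 42.6% held the GC box, 54.2% the CACCC box, 35.4% the CCAAT box, 6.13% AP-1, 11.6% the TATA box, 1.92% the cyclic AMP element and 1.39% the CArG box. The share of G and C was 64.8% at Klf6, 74.0% at Klf4, 59.6% at Klf9 and 71.2% at Klf2, against a median of 55.6% over these promoters. A match is a stretch of letters and was not examined as a bound site.

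The Silc1-/- injured list held 35815 summits, the Silc1-/- sham list 48332, the wild-type injured list 43841 and the wild-type sham list 27279. Scores are the peak caller's own, given as −log10 of a p or q value, and depend on depth, so they were ranked within a list and not compared between lists. Median scores over a list were 4.77 in Silc1-/- injured, 4.97 in Silc1-/- sham, 5.72 in wild-type injured and 6.33 in wild-type sham. No list had a summit inside or within 1 kb of Gm9866, taken as Silc1 from general knowledge, so the lists could not check the genotype labels. Of 12 sensory neuron markers, 7 had a summit within 1 kb of a start in Silc1-/- injured, 8 in Silc1-/- sham, 7 in wild-type injured and 6 in wild-type sham. Prrxl1, Ret and Calca had none in any list. Of all protein-coding genes, 48.2% had a start summit in Silc1-/- injured, 53.6% in Silc1-/- sham, 54.7% in wild-type injured and 49.1% in wild-type sham.

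Of the 10 genes, 8 had a summit within 1 kb of a gene start in all 4 lists, as did 43.6% of all protein-coding genes. The exceptions were Klf12 and Klf15. The score of each start was ranked among the starts of all genes in the same list. At Klf6 the highest start score was 27.1 in Silc1-/- injured, 46.5 in Silc1-/- sham, 77.9 in wild-type injured and 55.0 in wild-type sham. This placed Klf6 at percentile 92.7, 96.2, 97.7 and 98.4 of all genes with a start summit, in the same order of lists. At Klf7 the scores were 31.2 in Silc1-/- injured, 45.9 in Silc1-/- sham, 75.8 in wild-type injured and 50.6 in wild-type sham, or percentile 95.8, 95.8, 97.3 and 97.3. Both growth-promoting genes thus ranked high among scored gene starts in every list. Such scores were not particular to them. The related gene Sp4 scored 25.8 in Silc1-/- injured, 45.3 in Silc1-/- sham, 80.1 in wild-type injured and 56.7 in wild-type sham. Other relatives scored lower, such as Klf16, with 10.9, 13.3, 34.9 and 9.9 in the same lists.

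Klf4, also known as a pluripotency factor, had lower-ranked starts. Its best score was 13.1 in Silc1-/- injured, 10.4 in Silc1-/- sham, 12.9 in wild-type injured and 11.3 in wild-type sham, or percentile 63.7, 38.3, 33.6 and 40.4 of gene starts. Klf9, a gene induced by glucocorticoid and thyroid hormone, had 9.79 in Silc1-/- injured, 18.3 in Silc1-/- sham, 18.1 in wild-type injured and 16.3 in wild-type sham, or percentile 51.3, 61.7, 44.0 and 56.2. Both growth-limiting genes ranked below both growth-promoting genes in each of the 4 lists. No test was made of this order, which is over 4 genes, and how often other sets of 4 genes show such an order was not examined. The lists hold the same gene starts, so their agreement is not separate support.

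Among the other genes, Klf2, a factor of endothelial and lymphocyte quiescence, scored 18.5 in Silc1-/- injured, 46.8 in Silc1-/- sham, 64.3 in wild-type injured and 40.1 in wild-type sham. Its percentile was 79.9 in Silc1-/- injured and 92.5 to 96.3 in the other lists. Klf13, known as a regulator of the chemokine gene Ccl5 in T cells, scored 18.7 in Silc1-/- injured, 28.0 in Silc1-/- sham, 63.6 in wild-type injured and 40.7 in wild-type sham. Klf5, a factor of epithelial and smooth muscle proliferation, scored 26.6, 28.9, 49.0 and 35.1 in the same lists. Klf10, an early gene of TGF-beta signalling, scored 12.7, 19.1, 33.6 and 23.8. Klf12, a repressor of the AP-2 alpha gene, had no start summit in Silc1-/- injured and low-ranked ones elsewhere, 4.43 in Silc1-/- sham, 4.92 in wild-type injured and 3.48 in wild-type sham, at percentile 4.81 to 11.8. Klf15, a metabolic regulator in muscle and liver, had 1 start summit, in Silc1-/- injured, with a score of 2.52. A site 1081 bp downstream of the Klf15 start, just past the 1 kb limit, was in all 4 lists, at 5.61 in Silc1-/- injured, 4.49 in Silc1-/- sham, 6.53 in wild-type injured and 4.34 in wild-type sham.

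**Figure D1:**
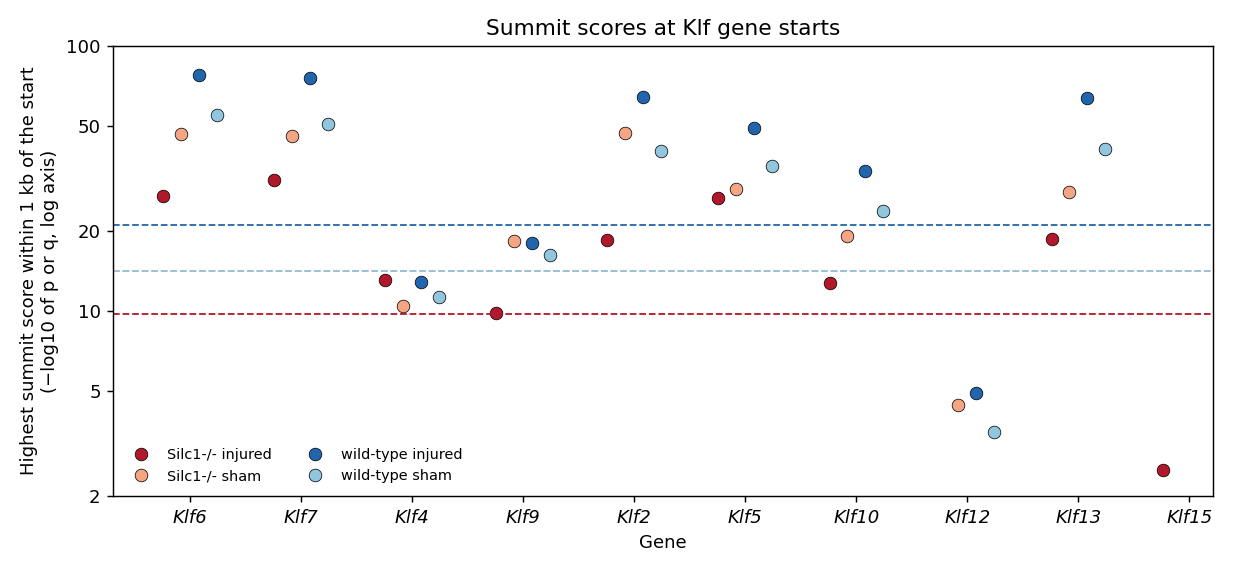
The highest score within 1 kb of a gene start, on the −log10 scale of the peak caller, is plotted for each Klf gene and list; dashed lines are the medians over all protein-coding genes with a start summit, 9.74 in Silc1-/- injured, 14.1 in Silc1-/- sham, 21.1 in wild-type injured and 14.1 in wild-type sham. Klf6 and Klf7 lie above the dashed line of their list in all 4 lists, while Klf12 and Klf15 lie near the bottom.

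Positions of the start summits differed between genes in how tightly they repeated. At Klf6 (chromosome 13, 5861489 to 5870393, plus strand) the 4 highest summits stood within 20 bp of each other, at 5861326 in Silc1-/- injured, 5861328 in Silc1-/- sham, 5861346 in wild-type injured and 5861345 in wild-type sham. At Klf2 (chromosome 8, 72319062 to 72321654, plus strand) they spanned 36 bp, and at Klf5 (chromosome 14, 99298691 to 99313412) 60 bp. At Klf7 (chromosome 1, 64029448 to 64122345, minus strand) they spanned 118 bp, 283 to 401 bp upstream of the inner of its 2 annotated starts. At Klf9 (chromosome 19, 23141226 to 23168129, plus strand) 3 lists had the summit 284 to 287 bp upstream of the start, and the Silc1-/- injured list had it 171 bp upstream. At Klf4 (chromosome 4, 55527137 to 55532475, minus strand) the highest summits spanned 431 bp. They lay 485 bp upstream in Silc1-/- injured and 492 bp in wild-type sham, but 61 bp in Silc1-/- sham and 63 bp in wild-type injured. Silc1-/- injured also had a lower Klf4 summit 111 bp upstream, with a score of 7.52. The highest point thus moved between an outer and an inner position at Klf4, and neither position went with genotype or with injury. Because these positions are over 200 bp apart they count as separate sites, and the Klf4 start is not among the sites in all 4 lists.

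Klf6 had 2 summits in Silc1-/- injured, 3 in Silc1-/- sham, 6 in wild-type injured and 3 in wild-type sham. A minor start summit 47 or 48 bp past the start was listed in Silc1-/- sham (7.95), wild-type injured (7.47) and wild-type sham (3.89) and not in Silc1-/- injured. The highest Klf6 site away from the start, at 5845833 and 15.7 kb upstream, was listed in wild-type injured only, with a score of 20.1. No other list had a summit within 15.5 kb of it, and a second wild-type injured summit stood beside it at 5845361 with a score of 4.49. Of the 12545 sites that only this list held, 155 (1.24%) scored at least as high, against a median of 3.62. It is the highest of 18 such sites near the 10 genes, chosen as such; for the highest Klf site of each other list alone, that share was 15.3% in Silc1-/- injured, 45.3% in Silc1-/- sham and 51.2% in wild-type sham. A site in both wild-type lists alone lay 5.3 kb past the end of Klf6, at 5875689, with 6.34 in wild-type injured and 2.32 in wild-type sham. Apart from the start, no Klf6 site was in all 4 lists.

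Klf7, a gene of 92.9 kb, had 4 summits in Silc1-/- injured, 6 in Silc1-/- sham, 9 in wild-type injured and 4 in wild-type sham. The highest site away from its start lay inside the gene, 61.1 kb downstream of the start, with 6.27 in Silc1-/- injured, 7.43 in Silc1-/- sham and 2.78 in wild-type injured and no summit in wild-type sham. A site at 64078600, 42.8 kb into the gene, was again in wild-type injured only, with a score of 7.16. The site inside Klf7 held by the injured lists of both genotypes and no sham list, at 64102415 and 19.0 kb downstream of the start, had low scores of 2.61 in Silc1-/- injured and 3.81 in wild-type injured. The nearest sham summit was 19.3 kb from it. A site 29.7 kb upstream was in all 4 lists, at 5.08 in Silc1-/- injured, 4.97 in Silc1-/- sham, 3.82 in wild-type injured and 4.2 in wild-type sham.

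Klf4 had 5 summits in Silc1-/- injured, 4 in Silc1-/- sham, 3 in wild-type injured and 3 in wild-type sham. Its highest-scoring site in 3 lists was not at the start but 12.3 kb past the other end of the gene, at 55514883. That site scored 10.6 in Silc1-/- injured, 12.1 in Silc1-/- sham, 24.2 in wild-type injured and 27.4 in wild-type sham, and was below the start only in Silc1-/- injured. Klf4 is the nearest protein-coding gene to it. A site inside Klf4, at 55530482, was in all lists but wild-type injured, with 5.44 in Silc1-/- injured, 3.22 in Silc1-/- sham and 1.99 in wild-type sham.

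Klf9 had 6 summits in Silc1-/- injured, 4 in Silc1-/- sham, 3 in wild-type injured and 5 in wild-type sham. Its highest site away from the start, 5141 bp upstream at 23136085, was in all 4 lists, with 3.46 in Silc1-/- injured, 7.59 in Silc1-/- sham, 10.4 in wild-type injured and 8.87 in wild-type sham. A neighbouring site at 23135687 was missing only from wild-type injured, at 2.79 in Silc1-/- injured, 4.99 in Silc1-/- sham and 6.27 in wild-type sham. Inside Klf9, the lists divided by genotype at 2 places. The site at 23162541 was in both Silc1-/- lists alone, at 5.08 in injured and 1.44 in sham, and the site at 23151745 was in both wild-type lists alone, at 6.02 in injured and 10.0 in sham. The nearest summits of the lists that lacked them were 10.8 kb and 10.4 kb away. The score of 1.44 is at percentile 1.85 of the Silc1-/- sham list, near its lowest score of 1.30.

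**Figure D2:**
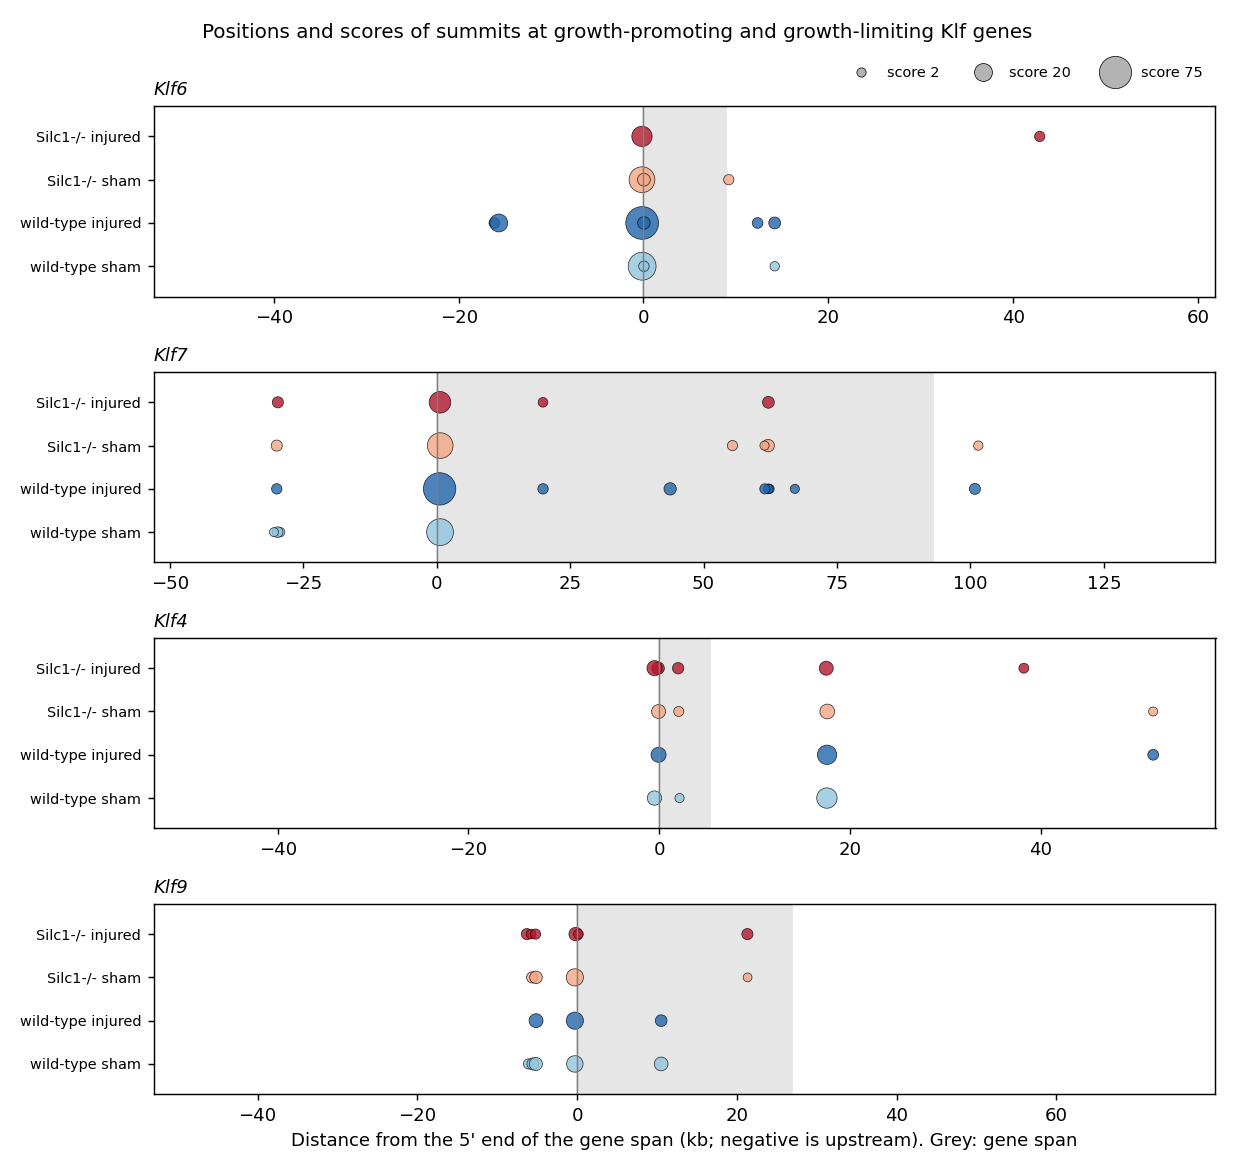
Summits around Klf6, Klf7, Klf4 and Klf9 are drawn by distance in kb from the 5′ end of the gene span, which is grey, 1 row per list, with marker size growing with score. At Klf6 the wild-type injured row has a summit 15.7 kb upstream that the other rows lack, and at Klf4 all 4 rows have a large summit 17.6 kb downstream of the start.

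The growth-promoting and growth-limiting pairs were compared by their summed summits, scaled to the mean list length. For Klf6 and Klf7 together, Silc1-/- injured had 6 summits and Silc1-/- sham 9, a scaled log2 ratio of -0.13 (95% counting interval -1.92 to 1.5). Wild-type injured had 15 and wild-type sham 7, a log2 ratio of 0.38 (-0.97 to 1.95). For Klf4 and Klf9 together, Silc1-/- injured had 11 and Silc1-/- sham 8, a log2 ratio of 0.80 (-0.56 to 2.41), while wild-type injured had 6 and wild-type sham 8, a log2 ratio of -0.97 (-2.90 to 0.62). The growth-promoting ratio minus the growth-limiting one was -0.93 (-2.92 to 1.05) for injury in Silc1-/- and 1.35 (-0.65 to 3.36) for injury in wild type. The signs were opposite in the genotypes, and both intervals include 0; with scores of at least 10 the Silc1-/- value was 0.41. In Silc1-/- injured against wild-type injured, Klf6 and Klf7 had 6 summits against 15, a log2 ratio of -0.93 (-2.68 to 0.42). Klf4 and Klf9 had 11 against 6, a log2 ratio of 1.03 (-0.39 to 2.89). In Silc1-/- sham against wild-type sham, Klf6 and Klf7 had 9 against 7 (-0.41, -2.06 to 1.20) and Klf4 and Klf9 8 against 8 (-0.74, -2.44 to 0.79). Each of these intervals includes 0. Summits close together count separately in these sums. In Silc1-/- injured, Klf4 had start summits at 55532586 and 55532960, and Klf9 at 23141055 and 23141385. Wild-type injured had only 55532538 and 23140942 there. At the Klf6 start, wild-type injured had close summits at 5861346 and 5861536, and Silc1-/- injured only 5861326.

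Klf2 had 1 summit in Silc1-/- injured, 5 in Silc1-/- sham, 8 in wild-type injured and 6 in wild-type sham. The single Silc1-/- injured summit was the one at the start. The same 4 sites were in all lists but Silc1-/- injured. They lay at 72272575, 72295850, 72303908 and 72366027, and their scores were 3.63 to 10.7 in Silc1-/- sham, 3.4 to 11.9 in wild-type injured and 2.92 to 11.1 in wild-type sham. The outer pair lies nearer to other genes, Ap1m1 and Eps15l1, while the inner pair lies 23.2 and 15.2 kb upstream of Klf2. Klf12 (chromosome 14, 99866181 to 100285891, minus strand), the longest of the genes, had 4, 5, 8 and 5 summits in Silc1-/- injured, Silc1-/- sham, wild-type injured and wild-type sham. It had 4.23 summits per 100 kb over the 4 lists together, the lowest of the 10 genes, and no site in all 4 lists. Its highest site, at 100055490, scored 10.6 in Silc1-/- injured, 5.19 in wild-type injured and 6.33 in wild-type sham, and was missing only from Silc1-/- sham. Sites at 99868257 and 100213252 inside Klf12 were in both Silc1-/- lists alone, with scores of 1.91 and 2.48 in injured and 7.16 and 4.29 in sham. The 1.91 and 2.48 are at percentile 3.31 and 12.4 of the Silc1-/- injured list.

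Klf13 (chromosome 7, 63886351 to 63938915, minus strand) had 6 summits in Silc1-/- injured, 7 in Silc1-/- sham, 15 in wild-type injured and 8 in wild-type sham. A site 41.9 kb into the gene, at 63897048, was in all 4 lists with 20.6 in Silc1-/- injured, 14.1 in Silc1-/- sham, 44.2 in wild-type injured and 41.6 in wild-type sham. It was above the Klf13 start in Silc1-/- injured and wild-type sham and below it in the other lists. Klf15 (chromosome 6, 90461043 to 90491803, plus strand) had 9, 10, 9 and 8 summits in Silc1-/- injured, Silc1-/- sham, wild-type injured and wild-type sham, or 27.5 per 100 kb over the 4 lists, the highest of the 10 genes. Of its 5 sites in all 4 lists, the highest, at 90438532, was nearer to Cfap100. It scored 12.3 in Silc1-/- injured, 4.29 in Silc1-/- sham, 9.88 in wild-type injured and 11.2 in wild-type sham.

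Klf10 (chromosome 15, 38291464 to 38300711) had 5, 7, 7 and 4 summits in Silc1-/- injured, Silc1-/- sham, wild-type injured and wild-type sham. Besides its start, all 4 lists held a site inside the gene 1621 bp from its upper end, at 10.7 in Silc1-/- injured, 11.6 in Silc1-/- sham, 23.5 in wild-type injured and 16.6 in wild-type sham. Sites at 38284076, 38308545 and 38311606 were in all lists but wild-type sham, with scores of 1.99 to 11.2. Klf5 had 3, 3, 4 and 2 summits in the same lists. Its site 14.9 kb outside the lower end, at 99283795, was in all 4 lists, at 10.6 in Silc1-/- injured, 17.7 in Silc1-/- sham, 3.82 in wild-type injured and 14.7 in wild-type sham.

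**Figure D3:**
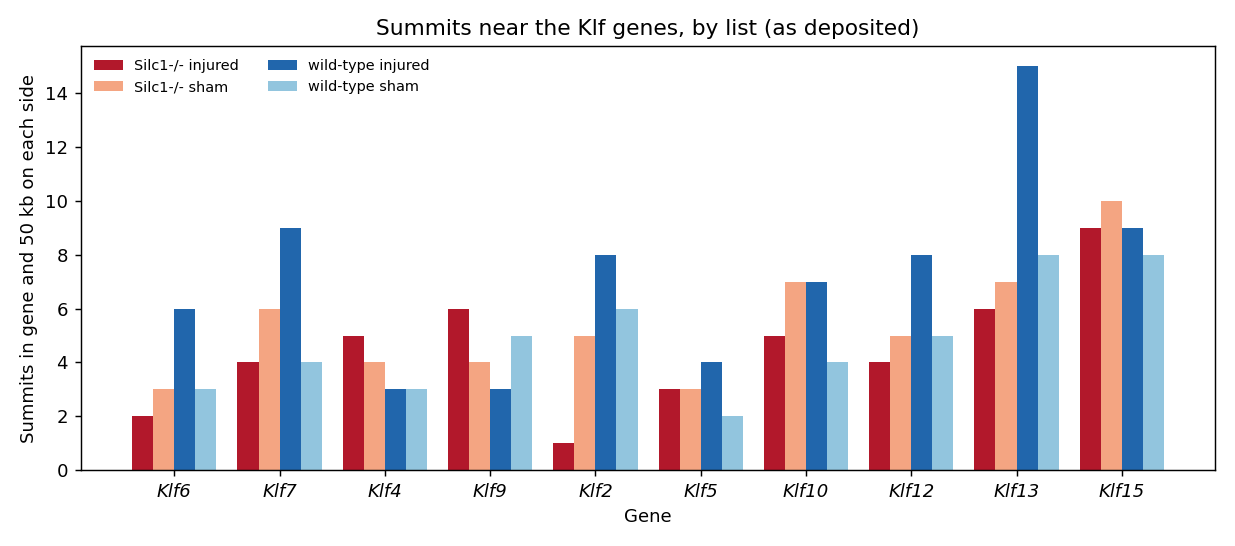
The number of summits inside each Klf gene or within 50 kb of it is plotted for the 4 lists, unscaled. Klf13 reaches 15 in wild-type injured, Klf15 stays between 8 and 10, and Klf2 has 1 in Silc1-/- injured.

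Of the 95 sites, 21 were in all 4 lists, or 22.1% (95% Wilson interval 14.9 to 31.4), against 18.3% of all sites. Sites in exactly 1 list numbered 36, or 37.9% (28.8 to 47.9), against 52.4% of all sites. The Silc1-/- sham list alone held 6 of them, or 6.32% of the 95 (2.93 to 13.1), against 21.1% of all sites, and the wild-type injured list alone held 18, or 18.9%, against 16.0%. Sites missing only from Silc1-/- injured numbered 8, or 8.42%, against 3.4% of all sites, 4 of them at Klf2. The intervals cover counting error only, and neighbouring sites of a gene are not independent. Of the 21 sites in all 4 lists 7 were at a gene start, and of the 74 in fewer lists 8 were. The same shares over all sites are not given here, so this is not shown to be particular to the Klf genes.

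Around Klf6 and Klf7 3 of 19 sites were in all 4 lists, or 15.8% (5.52 to 37.6), and around Klf4 and Klf9 3 of 14, or 21.4% (7.57 to 47.6). Of the growth-promoting sites 12 of 19 were in 1 list, or 63.2% (41.0 to 80.9), beside 52.4% of all sites; 6 of them were in wild-type injured, or 31.6% (15.4 to 54.0), beside 16.0%. Of the growth-limiting sites 4 of 14 were in 1 list, or 28.6% (11.7 to 54.6). In Silc1-/- injured alone there were 3, or 21.4% (7.57 to 47.6), beside 10.8% of all sites, and in wild-type injured alone 0, which allows up to 21.5%. The wild-type injured list is longer than the Silc1-/- injured list.

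**Figure D4:**
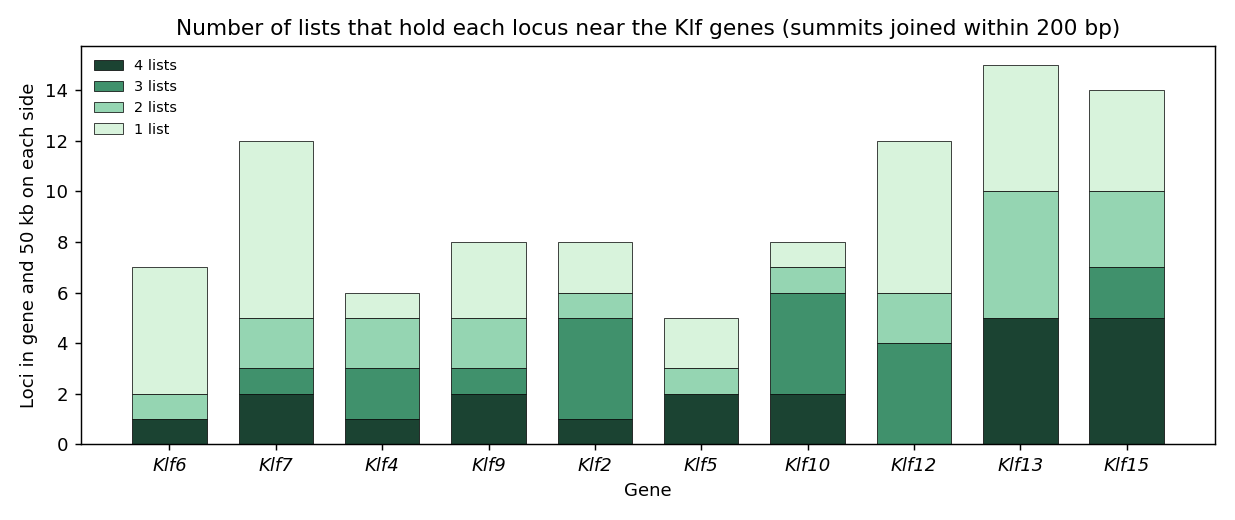
Sites near each Klf gene are stacked by the number of lists that hold them, from 1 to 4. Klf12 has none in all 4 lists, Klf15 has 5, and the Klf6 and Klf7 bars are mostly sites of 1 list.

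A few sites divided the lists by injury or by genotype. Sites held by both injured lists but by no sham list were found at 2 of the 10 genes, Klf7 and Klf13, as at 15.8% of protein-coding genes with any site. Sites in both sham lists alone were found at 1 gene, Klf15, against 9.92%. The Klf13 injured site, at 63925558, scored 2.76 in Silc1-/- injured and 5.08 in wild-type injured, with a summit of another list 496 bp away. The Klf15 sham site, at 90508385, scored 6.12 in Silc1-/- sham and 4.13 in wild-type sham. Sites in both Silc1-/- lists alone were at 2 genes, Klf9 and Klf12, against 21.5% of genes. Sites in both wild-type lists alone were at 4 genes, Klf6, Klf9, Klf2 and Klf13, against 16.8%, with 3 of the 6 sites at Klf13. The Klf13 sites, at 63858715, 63912235 and 63925247, scored 2.19 to 3.81 in wild-type injured and 2.74 to 8.19 in wild-type sham, and the Klf2 site, at 72350928, scored 6.67 and 5.43. The Klf13 site at 63925247 stood 275 bp from a Silc1-/- injured summit, which is part of the Klf13 injured site at 63925558. Counting these as separate sites, 1 divided by genotype and 1 by injury, rests on the joining distance of 200 bp.

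For each gene the scaled number of summits was compared between lists with a pseudocount of 1, and a ratio of at least 1.5-fold was counted where 1 of the lists had at least 3 summits. All 10 genes passed that minimum in every comparison, in some only through the list where they were higher. In Silc1-/- injured against Silc1-/- sham, 2 genes were higher by that measure, Klf4 (log2 ratio 0.61) and Klf9 (0.83), against 12.5% of all genes, and 1 was lower, Klf2 (-1.27), against 15.8%. The 10 genes had 45 summits against 54, a log2 ratio of 0.17 (-0.43 to 0.77), and a median of 0.14 beside 0.01 over all genes. Without scaling to list length the sum gave -0.26 (-0.87 to 0.34), and no gene was higher and Klf2 lower, against 4.26% and 35.9% of all genes. With lists cut to equal length, 9 genes passed the minimum, of which Klf4 was higher and Klf2 lower, against 9.46% and 16.3% of all genes, and Klf9 was not past 1.5-fold. In wild-type injured against wild-type sham, no gene was higher, against 16.5% of all genes, and 1 was lower, Klf9 (-1.15), against 11.9%. The 10 genes had 72 summits against 48, a log2 ratio of -0.10 (-0.65 to 0.46), and a median of 0.05 beside -0.07 over all genes. Without scaling the sum gave 0.58 (0.04 to 1.14), and 6 genes were higher in wild-type injured, Klf6, Klf7, Klf5, Klf10, Klf12 and Klf13, and Klf9 was lower, against 45.4% and 1.62% of all genes. At equal list lengths 1 of 9 genes was higher, Klf6, against 14.8% of all genes, and 2 lower, Klf9 and Klf15, against 9.21%. With scaled lists the interval of the injury ratio included 0 in both genotypes.

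In Silc1-/- sham against wild-type sham, 5 genes were lower after scaling, Klf6 (-0.63), Klf9 (-0.95), Klf2 (-0.93), Klf12 (-0.69) and Klf13 (-0.90), against 22.7% of all genes, and none higher, against 14.1%. The sums were 54 summits against 48, a scaled log2 ratio of -0.64 (-1.24 to -0.06), which turns to 0.17 (-0.42 to 0.76) without scaling. With scores of at least 5 it was -0.08 (-0.89 to 0.74), and at equal list lengths -0.37 (-1.03 to 0.27). Its interval also included 0 with scores of at least 10, with 10 kb on each side and by nearest protein-coding gene. It excluded 0 with 100 kb on each side, with gene ends only and with a pseudocount of 0.5. All 10 genes lay below 0 after scaling, with a median of -0.54 beside -0.17 over all genes; without scaling the medians were 0.14 and 0.48, with 1 gene higher, Klf10, against 48.0% of all genes, and none lower, against 1.84%. With lists cut to equal length, 3 of the 9 genes past the minimum were lower, Klf9, Klf12 and Klf13, against 14.0% of all genes, and 1 higher, Klf10, against 13.1%. The direction of this comparison therefore rests on how the long Silc1-/- sham list is scaled. With and without scaling the Klf median lay below that of all genes. Scaling moves all genes by nearly the same amount, so these are not separate results. At equal list lengths the medians were -0.415 for the Klf genes and 0.0 over all genes.

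In Silc1-/- injured against wild-type injured, 2 genes were higher, Klf4 (0.81) and Klf9 (1.04), against 11.1% of all genes, and 5 lower, Klf6 (-0.99), Klf7 (-0.75), Klf2 (-1.96), Klf12 (-0.60) and Klf13 (-0.93), against 18.4%. The same 7 genes passed without scaling, where 6.3% of all genes were higher and 34.3% lower. At equal list lengths Klf4 was higher, against 9.76% of all genes, and Klf6, Klf2, Klf12 and Klf13 lower, against 23.3%. The 10 genes had 45 summits against 72, a log2 ratio of -0.38 (-0.96 to 0.17; 0.33 with scores of at least 10), and a median of -0.38 beside -0.10 over all genes. At equal list lengths the order of the medians turned, with 0.0 for the Klf genes and -0.21 over all genes. Klf10 and Klf5 lay closest to 0, with log2 ratios of -0.17 and -0.10. These comparisons share lists with each other, so a list that stands apart enters more than 1 of them.

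**Figure D5:**
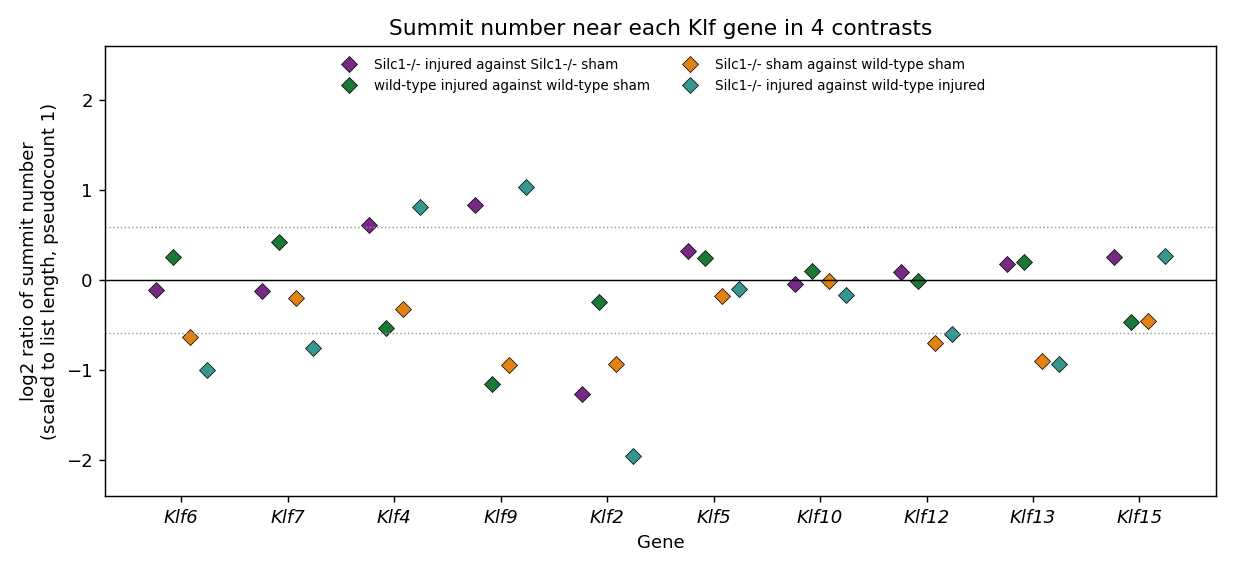
Log2 ratios of scaled summit numbers are plotted for each Klf gene in the 4 comparisons, with dotted lines at 1.5-fold up and down. Klf4 and Klf9 stand above 0 and Klf6, Klf7 and Klf2 below 0 in Silc1-/- injured against wild-type injured, and all 10 genes stand below 0 in Silc1-/- sham against wild-type sham, a comparison whose sum turns to 0.17 without the scaling.

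The 16 other genes of the Klf and Sp family had 60 summits in Silc1-/- injured, 81 in Silc1-/- sham, 93 in wild-type injured and 65 in wild-type sham. A start summit in all 4 lists was found at 7 of the 16, near the share of 43.6% over all protein-coding genes. Klf14, Klf17, Sp6, Sp8 and Sp9 had none at a start in any list. Of the 11 with enough summits, 6 were lower by 1.5-fold and none higher in Silc1-/- sham against wild-type sham, beside 22.7% and 14.1% of all genes. These are scaled values, and the unscaled sum over the 16 was higher in Silc1-/- sham. In Silc1-/- injured against wild-type injured 4 were lower and 1 higher, beside 18.4% and 11.1% of all genes. Klf3, a repressor that works with CtBP, was among the lower, with a log2 ratio of -1.34 from 3 summits against 11. The median over the 11 was 0.01 for injury in Silc1-/-, -0.36 for injury in wild type, -0.63 for Silc1-/- sham and -0.15 for Silc1-/- injured against their wild-type lists. Of 8 genes linked to Klf factors in axon growth, 2 had a start summit in all 4 lists, beside 43.6% of all protein-coding genes, and 1 had none. Stat3, a cytokine-activated factor that Klf4 restrains in mouse neurons, was 1 of these 2 and had the highest start scores of the 8. They were 29.4 in Silc1-/- injured, 43.1 in Silc1-/- sham, 85.0 in wild-type injured and 40.0 in wild-type sham. Of the 7 linked genes with enough summits, 2 were higher and none lower by 1.5-fold in wild-type injured against wild-type sham, beside 16.5% and 11.9% of all genes. They were Mapk10, which encodes the neuronal kinase JNK3 (6 summits against 1, log2 ratio 1.38), and Dusp14, a phosphatase gene (3 against 0). In Silc1-/- injured against Silc1-/- sham the 7 with enough summits included Gap43, a growth cone protein gene, in place of Dusp14. None was higher there and 2 were lower, beside 12.5% and 15.8% of all genes, among them Gap43 (1 against 4, -1.02). Mapk10, Dusp14 and Gap43 each passed the minimum only through the list where they were higher, so these counts are a description. The median over the genes past the minimum, 7 in each comparison, was -0.39 for injury in Silc1-/- and -0.04 for injury in wild type. It was 0.13 for Silc1-/- sham and -0.21 for Silc1-/- injured against their wild-type lists. Gap43 but not Dusp14 was among the 7 for injury in Silc1-/- and for Silc1-/- sham. In the other comparisons Dusp14 but not Gap43 was among them, so these medians are not over the same genes. Over all 8 genes the medians were -0.36, 0.10, 0.26 and -0.31 in the same order.

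Klf2 and Klf4 are also used by endothelial and myeloid cells, and markers of these cells were counted the same way. Start summits were found at 0 of 6 endothelial markers in Silc1-/- injured, 0 in Silc1-/- sham, 1 in wild-type injured and 1 in wild-type sham; Cdh5, Pecam1, Tie1, Kdr and Cldn5 had none in any list. They were found at 0 of 6 macrophage markers in Silc1-/- injured, Silc1-/- sham and wild-type sham and at 1 in wild-type injured. They were found at 1 of 4 neutrophil markers in Silc1-/- injured, 1 in Silc1-/- sham, 3 in wild-type injured and 2 in wild-type sham. The shares over all protein-coding genes were 48.2%, 53.6%, 54.7% and 49.1% in the same order of lists. Summits near the macrophage markers numbered 26 in Silc1-/- injured, 26 in Silc1-/- sham, 41 in wild-type injured and 22 in wild-type sham. Those near the neutrophil markers numbered 10, 17, 29 and 7, and those near the endothelial markers 15, 24, 23 and 13. In whole ganglia fewer cells of a type and fewer open sites per cell cannot be told apart, and the part of these cells in the Klf values was not tested.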

How the data were processed

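The 12 ATAC-seq libraries were grouped by the genotype and treatment labels, 3 per group, and each group had 1 deposited list of summits. Bowtie2, MACS2 and the mm10 build come from the submitters' processing notes. Their versions, the read filters, any transposase shift and any pooling of the 3 libraries were not given in the sources used here. The score deposited by the authors is −log10 of a p or q value, without saying which, with a minimum of 1.30 to 1.31, near −log10 of 0.05. Without read numbers the depth is unknown.

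The genes, gene lists and rules were chosen with earlier results of these data known. Genes came from a RefSeq table of GRCm38.p6. The start of Klf5 and Klf10, which were not matched in the promoter table, was taken as either gene end. Summits within 200 bp of the next were joined to sites. Start scores were the highest within 1 kb of an annotated start or the 5′ gene end. Summit numbers were scaled to the mean list length, with a pseudocount of 1, which understates ratios of genes with few summits. Named away from the start were the highest-scoring site of each gene and sites in both lists of a treatment or genotype alone. The other sites in the text, among them some but not all sites in all 4 lists, were chosen after their values were seen. Intervals are 95% Wilson for shares and exact Clopper-Pearson for ratios of sums. Those for the growth-promoting minus growth-limiting difference are symmetric, from a normal approximation that is rough for such small counts. The Clopper-Pearson intervals were computed without the pseudocount that the ratios include. All intervals cover counting error only. With 1 list per group no test was made. The values of 1 gene of the linked list are not reported here. The steps were tested on simulated data. Python 3.11.15, numpy 2.4.6, pandas 2.3.3, scipy 1.17.1 and matplotlib 3.10.9 were used.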

Additional observations from a re-analysis of the deposited data

Results flagged for a closer look

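Klf9 was singled out because injury went with opposite directions in the genotypes, each past 1.5-fold. The log2 ratio of scaled summits was 0.83 in Silc1-/- injured against Silc1-/- sham, from 6 summits against 4, and -1.15 in wild-type injured against wild-type sham, from 3 against 5. The difference between the genotypes was not tested, since each group has 1 list, and it rests on a few summits per list. All 4 lists had summits 5.14 to 6.29 kb upstream of Klf9, near its start and further inside the gene. The numbers differed by added summits close to these, such as those of Silc1-/- injured at 23134932, 23135465 and 23141385. They therefore do not show more open regions in 1 list than in another. The higher call in Silc1-/- held only with scaling to list length: Klf9 was not past 1.5-fold there without scaling or with lists of equal length, while the lower call in wild type held under all 3 scalings.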

How the results depend on the processing

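No paired analysis was possible because each group has 1 list, and for the same reason no library could be left out. The 13 results were recomputed under 14 settings, 119 alternatives in all: 99 stayed within the limits set for the main value, 19 moved past them, and 1 whose interval excluded 0 turned its sign. That was the ratio over the 10 genes in Silc1-/- sham against wild-type sham, at 0.17 without scaling to list length, a setting added after seeing the data, against -0.64. It ranged from -0.65 to 0.17, and its value of -0.08 with scores of at least 5 counted as within the limits. Without scaling, wild-type injured against wild-type sham was 0.58, against -0.10. Joining within 50 bp gave 8.66% of Klf sites in all 4 lists and 5 in both Silc1-/- lists alone. Joining within 500 bp and within 1000 bp each left 1 site in both injured lists alone. Joining within 500 bp also put the growth-promoting minus growth-limiting difference in sites in all 4 lists at -26.8 percentage points, against -5.64. That counted as within the limits, so staying within them does not mean that a value changed little. Scores of at least 5 left 1 site private to the Silc1-/- lists, 0 to the sham lists and 3 to the wild-type lists. Scores of at least 10 gave 32.1% of sites in all 4 lists and 0 sites private to the Silc1-/- lists, 0 to the injured, 0 to the sham and 1 to the wild-type lists. They also gave a log2 ratio of 0.33 in Silc1-/- injured against wild-type injured, and a difference of 50 percentage points between the growth-promoting and growth-limiting pairs in sites in all 4 lists, against -5.64. Lists of equal length left 1 site private to the injured lists and 4 to the sham lists. A 10 kb neighbourhood left 0 in both sham lists alone, and a 100 kb one gave 4 in both injured lists alone. Ratios whose interval included 0 could change sign: the range was -0.26 to 0.37 for injury in Silc1-/-, -0.33 to 0.58 for injury in wild type, -0.67 to 0.33 for Silc1-/- injured against wild-type injured, and -1.36 to 0.41 for the difference of the pairs in Silc1-/-. That difference in wild type ranged from 0.46 to 2.07. Apart from what the settings' construction shows (fewer summits, other distances), the cause was not tested. The number of genes with a start summit in all 4 lists ranged from 7 to 9.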
